A study of Mus musculus with 33 samples.

Results

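The endothelial and mural cell genes described here are 44 genes whose transcripts mark the cells of brain blood vessels. They were chosen by gene name, and each of the 44 was present once in all 5 deposited tables, among 38393 features per table. Of these, 30 are endothelial genes, 12 are mural cell genes (9 of pericytes and 3 of vascular smooth muscle) and 2 encode collagen IV chains of the vascular basement membrane. All 44 passed the filter on low counts in every comparison below. Endothelial cells line the vessel, and in brain their tight junctions and dedicated transporters form the blood-brain barrier. Mural cells wrap the vessel from outside: pericytes cover capillaries, and smooth muscle cells surround arterioles and arteries. Endothelial cells recruit pericytes with PDGF-B, which acts on the receptor encoded by Pdgfrb, while VEGF and angiopoietin receptors on the endothelium govern vessel growth and stability.

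The 33 bulk libraries were made from polyadenylated RNA of cerebellum or cortex. All mice were male C57Bl/6J animals, 1 month old, and the submitters call the libraries biological replicates. The study asked how a network of noncoding RNAs, built around the long noncoding RNA Cyrano and the microRNA miR-7, acts in the mouse brain. CyrMut mice carry a mutated miR-7 site in Cyrano, CyrKO mice lack Cyrano, and Mir7DKO mice lack both Mir7a1 and Mir7b. No Cre line, transgene or further allele is named in the labels. Experiment 1A held cerebella of 4 CyrMut and 3 wild-type (WT) mice. Experiment 1B held cerebella of 4 CyrKO, 4 Mir7DKO and 4 WT mice. Experiment 2 held 3 Mir7DKO and 4 WT libraries of cerebellum and 3 Mir7DKO and 4 WT libraries of cortex. Each mutant was compared with the WT libraries of its own experiment, and WT cerebellum with WT cortex in experiment 2.

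Libraries held 6.89 to 24.94 M counts. Levels are CPM (the count of a gene per M of all counts in its library, on TMM scaling over the 33 libraries), and changes are log2 of mutant over WT, or of cerebellum over cortex, with their standard error (SE). A change is called at an adjusted p under 0.05 in edgeR's quasi-likelihood test, adjusted by Benjamini-Hochberg over all genes tested. Cyrano (1700020I14Rik) was at 73.6 to 87.4 CPM in the 4 CyrKO libraries and at 1558 to 1942 CPM in the 4 WT libraries, a fall of 4.53 on the log2 scale (SE 0.089, adjusted p = 1.1e-12). The CyrMut label cannot be checked on this transcript, because a mutated site need not change its amount. The libraries also hold no measure of miR-7, so the Mir7DKO label was not checked. In WT cerebellum against WT cortex, 8 of 8 cerebellar neuron markers were higher and 8 of 8 cortical neuron markers were lower, as their labels state. Libraries differed in choroid plexus markers, 14 genes that summed to between 158 and 2572 CPM per library. Low values of this sum need not be choroid plexus RNA, because the marker Enpp2 alone averaged 257 CPM in Mir7DKO cortex. Libraries differed also in erythrocyte RNA, whose 7 markers summed to between 38.1 and 1749 CPM. In bulk tissue, fewer cells of a type and less RNA per cell cannot be told apart.

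miR-7 is shown first because Mir7DKO mice lack Mir7a1 and Mir7b, which encode it. RefSeq lists miR-7a-5p also at Mir7-2 on chromosome 7, a locus that the labels do not name as deleted. A microRNA pairs with messenger RNAs through its seed, bases 2 to 8, set in capitals here. The mature sequences come from RefSeq (GRCm38.p6), and both forms share 1 seed.

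mmu-miR-7a-5p: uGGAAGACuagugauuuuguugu

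mmu-miR-7b-5p: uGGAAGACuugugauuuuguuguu

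The longest annotated 3′ UTR of 11 of the 44 genes (25.0%) held at least 1 miR-7 match on the transcript strand, against 5255 of 21193 genes with an annotated 3′ UTR (24.8%). A match is GTCTTCC, which pairs with the whole seed, or TCTTCCA, which pairs with bases 2 to 7 and has an A after them, and so does not match base 8. None of the members' matches was the combined form GTCTTCCA. The share of the members was near that of all genes. The 11 are Flt1, Pecam1, Cdh5, Tjp1, Slc2a1, Sox17, Ets1 and Nos3 of the endothelial genes, Rgs5 of the mural genes, and both collagen chains, with 2 matches each in Flt1, Cdh5 and Tjp1. Slc2a1, Sox17, Ets1, Rgs5 and Col4a1 held the form TCTTCCA alone. The sites of Col4a1, Col4a2, Flt1, Sox17, Nos3 and Rgs5 are printed below from the GENCODE vM21 transcripts. They run 5′ to 3′ on the gene's strand, with the match in capitals. A match is a description of letters and not evidence of binding.

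Col4a1, chr8:11199299-11199327, - strand: gggaactggttTCTTCCActttctacatg

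Col4a2, chr8:11448831-11448859, + strand: accttcctgcaGTCTTCCtaaaatgaggc

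Flt1, chr5:147638832-147638860, - strand: gacgcatctttTCTTCCActctgatgcca

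Flt1, chr5:147637495-147637523, - strand: tctgaggcaatGTCTTCCtccagggaaac

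Sox17, chr1:4491017-4491045, - strand: tgtttgtctttTCTTCCAaaagtcttgat

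Nos3, chr5:24383980-24383999, + strand: caGTCTTCCtcccctccagt

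Rgs5, chr1:169693770-169693798, + strand: ttgtgtttcccTCTTCCAggagagcacag

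The vascular transcripts spanned a wide range of levels in WT cerebellum. Per kb of exon, which allows genes to be compared, Rgs5 was highest at 45.8 ± 2.25 CPM per kb (SD, n = 11 libraries of 3 experiments). It encodes a regulator of G-protein signalling and is a marker of brain pericytes. Among mural genes, Vtn (vitronectin, a matrix protein that brain pericytes secrete) followed at 27.5 ± 1.78, then Acta2 (smooth muscle actin) at 6.45 ± 0.58 and Pdgfrb at 6.01 ± 0.84 CPM per kb. Among endothelial genes, Epas1, which encodes the oxygen-regulated transcription factor HIF-2 alpha, was highest at 30.8 ± 1.86 CPM per kb. It was followed by Itm2a, which encodes a membrane protein, at 27.6 ± 3.13, and by the glucose transporter gene Slc2a1 at 24.8 ± 4.69 CPM per kb. The amino acid transporter gene Slc7a5 was at 22.7 ± 2.48, the junction adaptor gene Tjp1 at 19.8 ± 1.24 and the tight junction gene Cldn5 at 12.3 ± 2.08 CPM per kb. The order of the middle ranks depends on the experiment: Slc2a1 averaged 27.8 CPM per kb in both experiment 1A and experiment 1B, but 19.6 in experiment 2, where it lay below Slc7a5 (21.1) and Tjp1 (20.7). Neighbours such as Itm2a and Vtn lay within each other's spread. The lowest of the 44 was Sox17, an endothelial transcription factor gene, at 0.96 ± 0.19 CPM per kb. Several of these genes, among them Slc7a5, Tjp1 and Cspg4, are also transcribed in other brain cells.

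**Figure D1:**
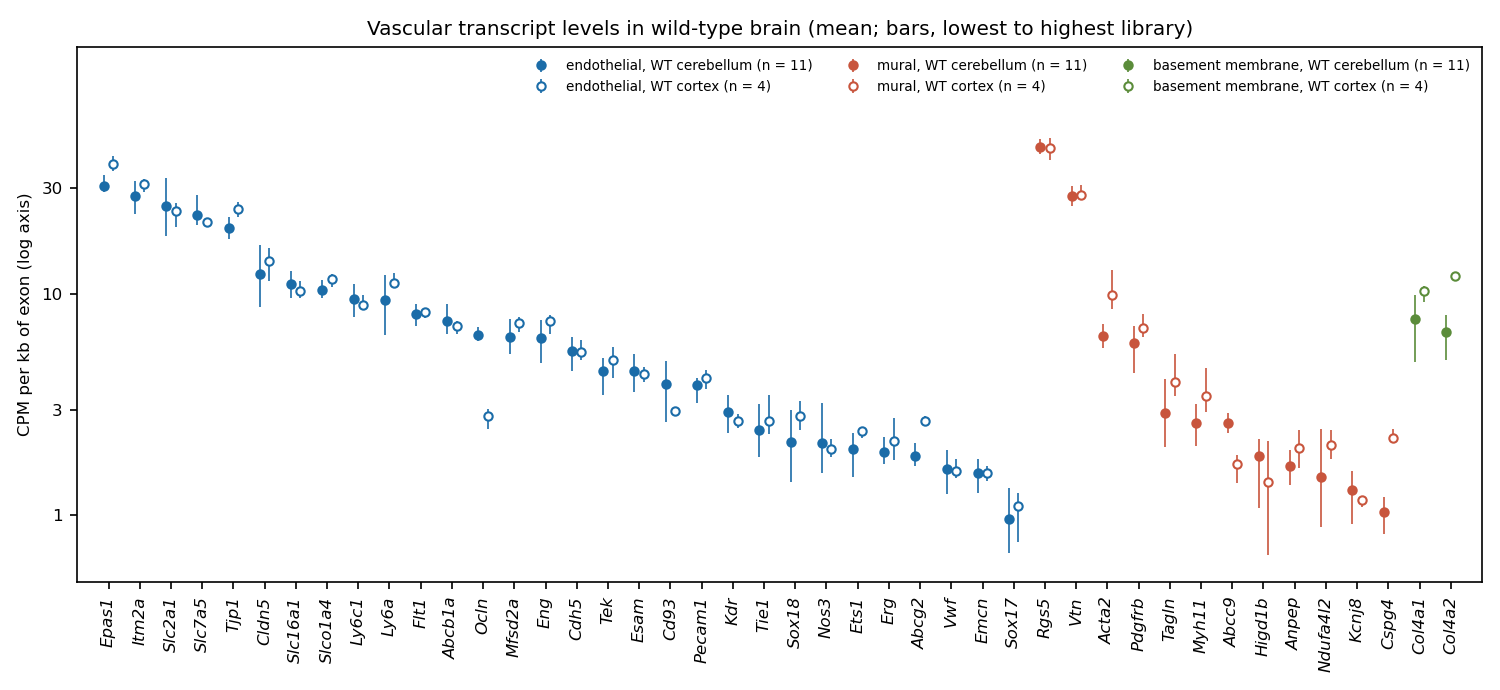
Level of each of the 44 genes in WT brain, in CPM per kb of exon on a log axis, for cerebellum (filled, n = 11) and cortex (open, n = 4); points are means and bars run from the lowest to the highest library. Rgs5 stands highest at 45.8 CPM per kb in cerebellum, and Sox17 lowest at 0.96 CPM per kb.

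The spread between libraries of a group differed from gene to gene. The coefficient of variation, taken as the median over the 9 groups, was lowest for the VEGF receptor gene Flt1 (4.02%) and its median over the 44 members was 9.49%. It was highest for the transcription factor gene Sox18 (24.0%), for Nos3, the endothelial nitric oxide synthase (23.0%), and for the pericyte gene Higd1b (19.4%). Sox18 and Higd1b are among the least abundant of the 44 in CPM. A change of a given size was therefore easier to detect in Flt1 than in Sox18.

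In cortex, the Mir7DKO libraries of experiment 2 had higher Cd93 than WT, and most other vascular genes had small positive log2 changes that did not pass the test. Cd93 (ENSMUSG00000027435, chromosome 2, 148436640 to 148443563, - strand, GRCm38) encodes a transmembrane glycoprotein of endothelial cells with a role in vessel growth. It was at 29.7, 26.97 and 27.3 CPM in Mir7DKO cortex (3 libraries) and at 20.1, 19.1, 18.8 and 20.6 CPM in WT cortex (4 libraries). All Mir7DKO libraries lay above all WT libraries. Its log2 change was 0.50 (SE 0.0835, adjusted p = 0.027, edgeR quasi-likelihood test). Cd93 was the only 1 of the 44 members called, where 6 of 13754 genes were called in all (0.0436%), 3 of them higher (0.0218%). The call rests on few libraries: it was lost without any 1 of the Mir7DKO replicates 1, 2 or 3 or the WT replicates 2, 3 or 4 (adjusted p = 0.066 to 0.300), and with DESeq2 (adjusted p = 0.203), while the change stayed between 0.46 and 0.53 in every alternative.

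**Figure D2:**
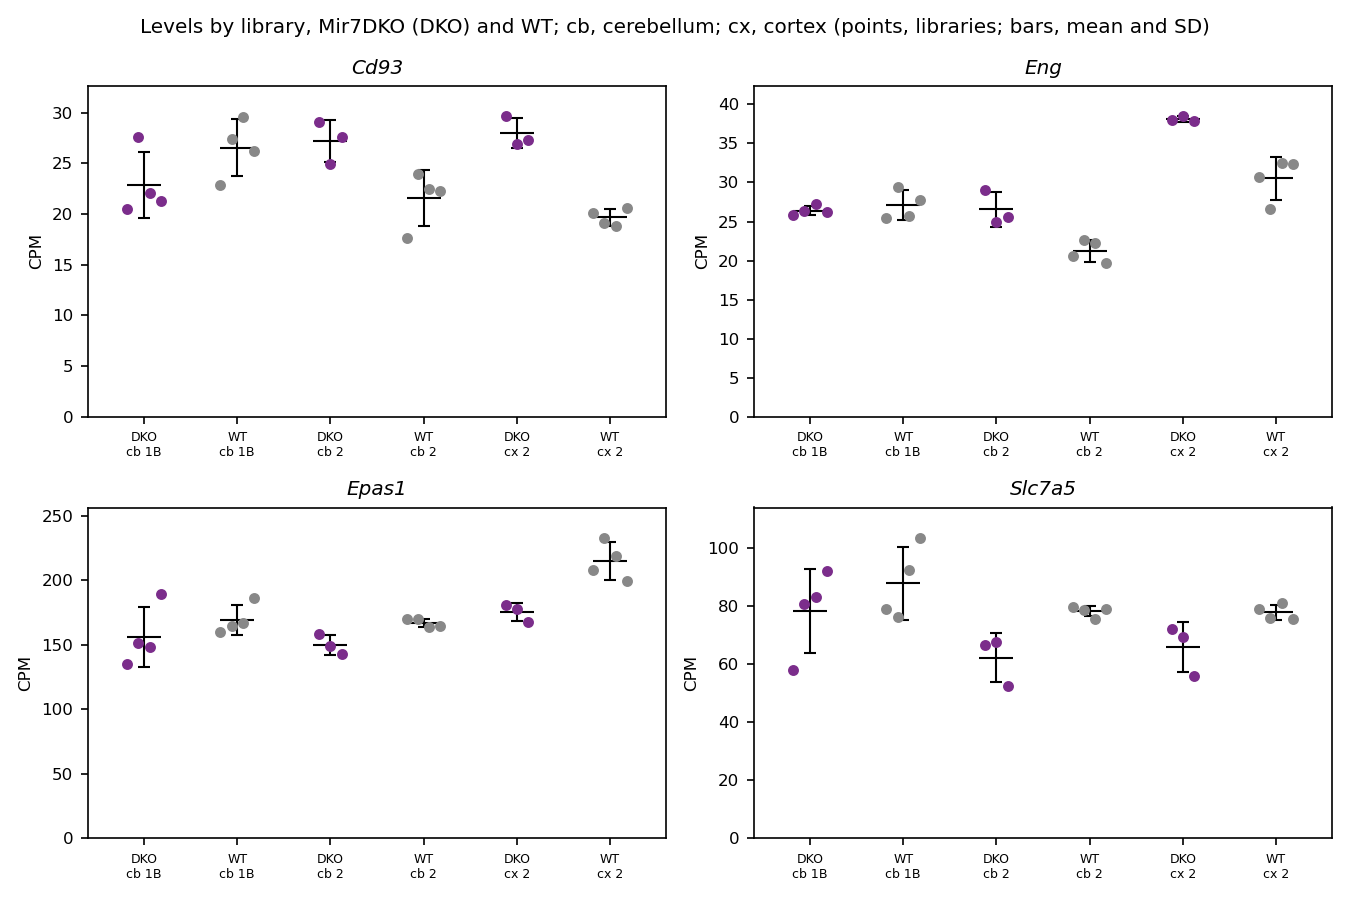
Levels in CPM by library of Cd93, Eng, Epas1 and Slc7a5 in Mir7DKO and WT libraries of experiment 1B cerebellum, experiment 2 cerebellum and experiment 2 cortex; each point is a library and bars give the mean and SD. The Mir7DKO cortex libraries of Cd93 (26.97 to 29.7 CPM) stand above all WT cortex libraries (18.8 to 20.6 CPM), which is not so in experiment 1B.

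The next members in this comparison did not pass. Epas1 (chromosome 17, 86753700 to 86833410, + strand) was at 181, 178 and 168 CPM in Mir7DKO cortex and at 208, 233, 219 and 200 CPM in WT cortex. Each Mir7DKO library was below each WT library, and the log2 change of -0.29 (SE 0.057) had an adjusted p of 0.126 in edgeR. With DESeq2 its adjusted p was 0.015. Eng encodes endoglin, a co-receptor for TGF-beta and BMP ligands. It was at 38.02, 38.5 and 37.9 CPM in Mir7DKO cortex and at 30.7, 26.6, 32.5 and 32.3 CPM in WT cortex, again without overlap, with a log2 change of 0.32 (SE 0.0775, adjusted p = 0.489).

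Of the 44 members, 32 had a positive log2 change in Mir7DKO cortex, with a median of 0.11, where 51.6% of all genes were positive and their median was 0.00 (13754 genes). At an unadjusted p under 0.05, 14 members were higher, against 3.07% of all genes, and 2 were lower, against 2.70%. The groups did not overlap for 11 members with Mir7DKO above WT (3.64% of all genes) and for 2 with Mir7DKO below WT (3.15%), which were Epas1 and Slc7a5. The summed level of the 5 growth factor receptor genes (Flt1, Kdr, Tek, Tie1 and Eng) was 226 to 231 CPM in Mir7DKO cortex and 195 to 216 CPM in WT cortex, without overlap. Flt1 made up most of this sum, at means of 125 CPM in Mir7DKO cortex and 112 CPM in WT cortex. How often sums of other genes separate was not computed. Taken singly, the groups did not overlap for Flt1 and Eng but did for Kdr, Tek and Tie1. By role, 4 of those 5, 5 of 6 junction genes, 4 of 5 transcription factor genes and 4 of 7 surface and secreted genes were positive, but 3 of 7 transporter genes. Examples with an unadjusted p under 0.05 were Cldn5 at 0.35 (SE 0.11), Nos3 at 0.43 (SE 0.14), Flt1 at 0.16 (SE 0.052), Sox17 at 0.55 (SE 0.18) and the VEGF receptor gene Kdr at 0.19 (SE 0.084). The adjusted p of these 5 was 0.796 or more.

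Among mural genes, 10 of 12 were positive with a median of 0.11, and none was called. Vtn was at 62.2, 65.3 and 63.8 CPM in Mir7DKO cortex and at 63.1, 54.2, 55.2 and 54.9 CPM in WT cortex. The groups overlapped through WT replicate 1, and the log2 change was 0.17 (SE 0.065, adjusted p = 0.849). Rgs5 was at 246, 225 and 207 CPM in Mir7DKO cortex and at 210, 228, 202 and 183 CPM in WT cortex, which overlap, with a log2 change of 0.13 (SE 0.069, adjusted p = 0.883) that was 0.06 without Mir7DKO replicate 1. Col4a1, which encodes 1 of the collagen IV chains, was at 74.8 to 87.2 CPM in Mir7DKO cortex and 68.2 to 81.0 CPM in WT cortex, and Col4a2, its partner chain, at 83.8 to 94.4 CPM in Mir7DKO cortex and 76.2 to 83.3 CPM in WT cortex. Their log2 changes were 0.07 (SE 0.070) and 0.15 (SE 0.060), neither of which passed.

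Other lists moved beside these values in cortex. The 14 choroid plexus markers summed to 285 to 307 CPM in Mir7DKO cortex and 287 to 1003 CPM in WT cortex, with 0 to 3 markers at 0 counts in a Mir7DKO library and 0 in each WT library. All 8 of those tested were negative, and Ttr, which encodes transthyretin and is the most abundant of them in choroid plexus, was at 3.05 ± 1.00 CPM in Mir7DKO cortex and 169 ± 165 CPM in WT cortex (SD, n = 3 and 4, adjusted p = 0.041). Another marker, Enpp2, was at 257 ± 9.33 CPM in Mir7DKO cortex and 388 ± 140 CPM in WT cortex. It thus made up most of the sum in Mir7DKO cortex. With a choroid plexus index in the fit, Cd93 had a log2 change of 0.51 (adjusted p = 0.318). Without the 2 WT libraries that held most choroid plexus RNA, a setting chosen after seeing the data, it had 0.50 (adjusted p = 0.325), and 34 of 44 members were positive. Microglia markers were positive for 7 of 8 (370 to 388 CPM summed in Mir7DKO cortex, 350 to 370 CPM in WT cortex), and the erythrocyte markers summed to 38.5 to 74.3 CPM in Mir7DKO cortex and 38.1 to 67.1 CPM in WT cortex. Oligodendrocyte markers were negative for 7 of 7. The part of microglia and oligodendrocytes in the vascular values was not tested.

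In cerebellum of experiment 2, no member was called in Mir7DKO, where 28 of 14146 genes were called (0.198%). DESeq2 called 1 member, Slc7a5, and at an unadjusted p under 0.05 edgeR had 5 members higher (3.90% of all genes) and 2 lower (2.88%). The groups did not overlap for 4 members with Mir7DKO above WT (3.47% of all genes) and for 2 with Mir7DKO below WT (3.21%). Slc7a5 encodes LAT1, which carries large neutral amino acids across the barrier. It was at 66.6, 67.7 and 52.6 CPM in Mir7DKO cerebellum and at 79.8, 78.7, 75.7 and 79.2 CPM in WT cerebellum. The WT libraries lay close together, and all Mir7DKO libraries were below them. The log2 change was -0.33 (SE 0.074, adjusted p = 0.077), and its adjusted p was 0.0496 with DESeq2 and 0.035 or 0.037 in edgeR without Mir7DKO replicate 1 or 2. With the choroid plexus index in the fit the change was -0.57 (adjusted p = 0.0038).

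Receptor genes of the endothelium had positive changes there. Eng was at 29.1, 24.95 and 25.6 CPM in Mir7DKO cerebellum and at 20.6, 22.7, 22.2 and 19.7 CPM in WT cerebellum. Kdr was at 27.9, 29.8 and 28.2 CPM in Mir7DKO cerebellum and at 21.2, 23.0, 25.0 and 24.8 CPM in WT cerebellum. In both genes the Mir7DKO libraries lay above all WT libraries, with log2 changes of 0.32 (SE 0.089, adjusted p = 0.228) and 0.28 (SE 0.0835, adjusted p = 0.276). The 5 growth factor receptor genes summed to 204 to 209 CPM in Mir7DKO cerebellum and 178 to 195 CPM in WT cerebellum, without overlap. Most of this sum was Flt1, at means of 115 CPM in Mir7DKO cerebellum and 109 CPM in WT cerebellum. Of the receptor genes 5 of 5 were positive, of the 7 transporter genes 2 were, and over the 44 members 27 were positive with a median of 0.05, where 49.3% of all genes were positive and their median was 0.00. Cd93 was at 0.33 (SE 0.098, adjusted p = 0.277) and Epas1 at -0.16 (SE 0.054, adjusted p = 0.450), and the groups did not overlap for either. In cerebellum of experiment 1B, the sum of the 5 receptor genes overlapped between Mir7DKO and WT, and WT libraries reached higher. How often sums of other genes separate was not computed, so the receptor sums have no background.

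Of the mural genes, Acta2 was at 16.1, 17.9 and 19.0 CPM in Mir7DKO cerebellum and at 14.5, 15.4, 13.99 and 13.4 CPM in WT cerebellum, with no overlap. Its log2 change of 0.30 (SE 0.10) did not pass (adjusted p = 0.395). The other smooth muscle genes, Tagln at 0.14 (SE 0.16) and the myosin gene Myh11 at 0.14 (SE 0.094), were positive and overlapped. Rgs5 was at 203, 228 and 272 CPM in Mir7DKO cerebellum and at 212, 200, 222 and 228 CPM in WT cerebellum, which overlap, and its change of 0.12 (SE 0.072) was -0.0012 without Mir7DKO replicate 3. The collagen genes Col4a1 at 0.12 (SE 0.086) and Col4a2 at 0.10 (SE 0.075) did not pass, and Col4a1 ranged from 0.03 to 0.19 when 1 library was left out. Choroid plexus markers moved the other way from cortex: 7 of 10 tested were called higher, and they summed to 217 to 1505 CPM in Mir7DKO cerebellum and 215 to 260 CPM in WT cerebellum. Fibroblast markers of meninges and perivascular space, whose cells also make collagen, were positive for 11 of 12 and summed to 329 to 369 CPM in Mir7DKO cerebellum and 271 to 353 CPM in WT cerebellum. Their part in the vascular values was not tested.

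In cerebellum of experiment 1B, no member was called in Mir7DKO either, where 1 of 14031 genes was called (0.00713%), and DESeq2 also called no member. The lowest p of the 44 belonged to the collagen genes. Col4a1 (chromosome 8, 11198423 to 11312826, - strand) was at 41.5, 58.9, 41.0 and 45.2 CPM in Mir7DKO and at 60.1, 63.5, 66.0 and 62.9 CPM in WT. Mir7DKO replicate 2 lay just below the WT libraries and the other 3 well below. The log2 change was -0.43 (SE 0.10, unadjusted p = 0.00145, adjusted p = 1.00 by Benjamini-Hochberg in edgeR). In this experiment Col4a1 was the only member whose groups did not overlap, with Mir7DKO below WT (1.30% of all genes), and in 0 members all Mir7DKO libraries lay above WT (1.32%). Col4a2 (chromosome 8, 11312805 to 11449287, + strand) starts where Col4a1 starts, on the other strand. It was at 34.5, 46.7, 34.7 and 34.6 CPM in Mir7DKO and at 44.5, 46.1, 53.2 and 48.8 CPM in WT, so that Mir7DKO replicate 2 fell among the WT libraries and the other 3 below them. Its change was -0.35 (SE 0.10, unadjusted p = 0.00567). Without Mir7DKO replicate 2, Col4a1 had a change of -0.56 and was called (adjusted p = 0.041).

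**Figure D3:**
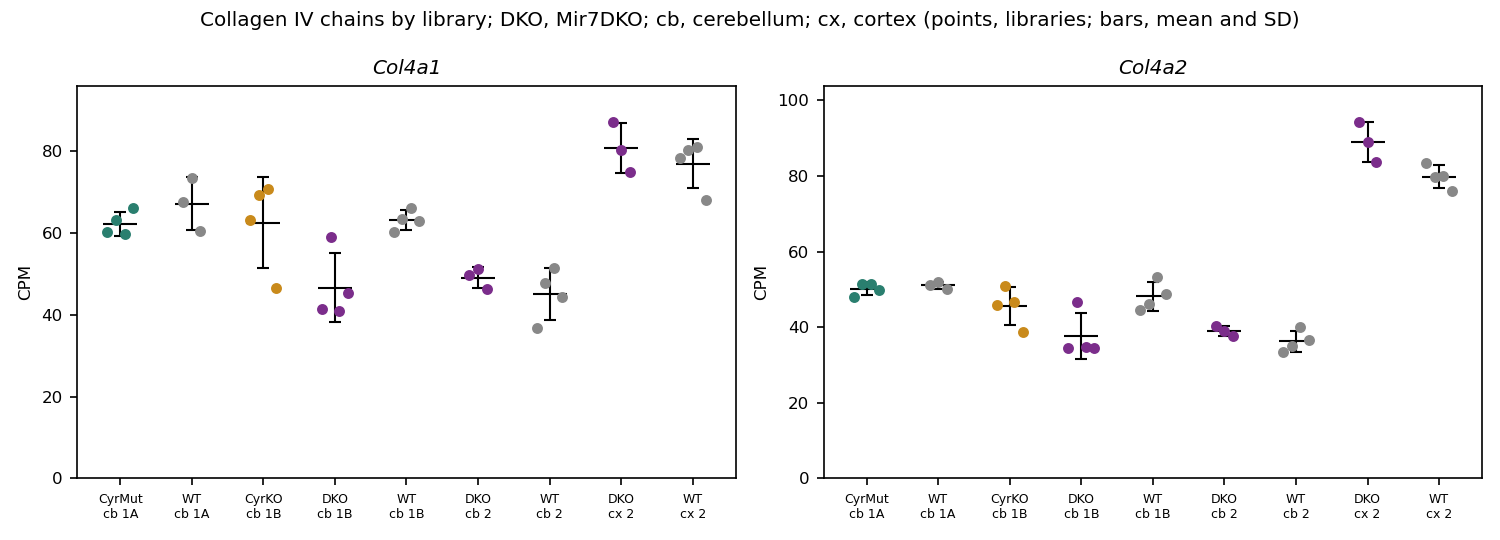
Levels in CPM by library of Col4a1 and Col4a2 in every group; each point is a library and bars give the mean and SD. In experiment 1B, 3 of 4 Mir7DKO libraries lie between 41.0 and 45.2 CPM for Col4a1 with replicate 2 at 58.9 CPM, and within experiment 2 the cortex libraries stand above the cerebellum libraries in both genes.

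The remaining members of experiment 1B had small changes of both signs. Of 44 members, 14 were positive and 30 negative, with a median of -0.06, where 50.3% of all genes were positive and their median was 0.00. At an unadjusted p under 0.05, 0 members were higher (2.06% of all genes) and 2 were lower (1.62%), the collagen genes. Kdr was at 24.4, 27.9, 19.7 and 21.8 CPM in Mir7DKO and at 23.3, 29.5, 31.3 and 28.2 CPM in WT, a log2 change of -0.25 (SE 0.12). Esam, an adhesion molecule of endothelial junctions, had the same change of -0.25 (SE 0.12) and Cd93 had -0.20 (SE 0.11), or -0.31 without Mir7DKO replicate 2. For all 3 the groups overlapped.

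Among mural genes of experiment 1B, Ndufa4l2, a mitochondrial protein gene transcribed in pericytes, was at 1.55, 2.11, 1.57 and 2.08 CPM in Mir7DKO and at 0.97, 1.05, 1.55 and 1.56 CPM in WT. The groups met at about 1.56 CPM, and the change was 0.52 (SE 0.24, adjusted p = 1.00). Abcc9 encodes a subunit of the potassium channel that pericytes build together with the Kcnj8 product, and had a change of -0.15 (SE 0.077). Oligodendrocyte markers were negative for 7 of 7 and the other basement membrane genes for 13 of 17 there. Fibroblast markers summed to 238 to 373 CPM in Mir7DKO and 282 to 333 CPM in WT, with 7 of 12 positive. Erythrocyte markers were negative for 6 of 6 tested, at 201 to 595 CPM in Mir7DKO and 235 to 1749 CPM in WT. Whether oligodendrocyte or erythrocyte RNA had a part in the vascular values was not tested.

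**Figure D4:**
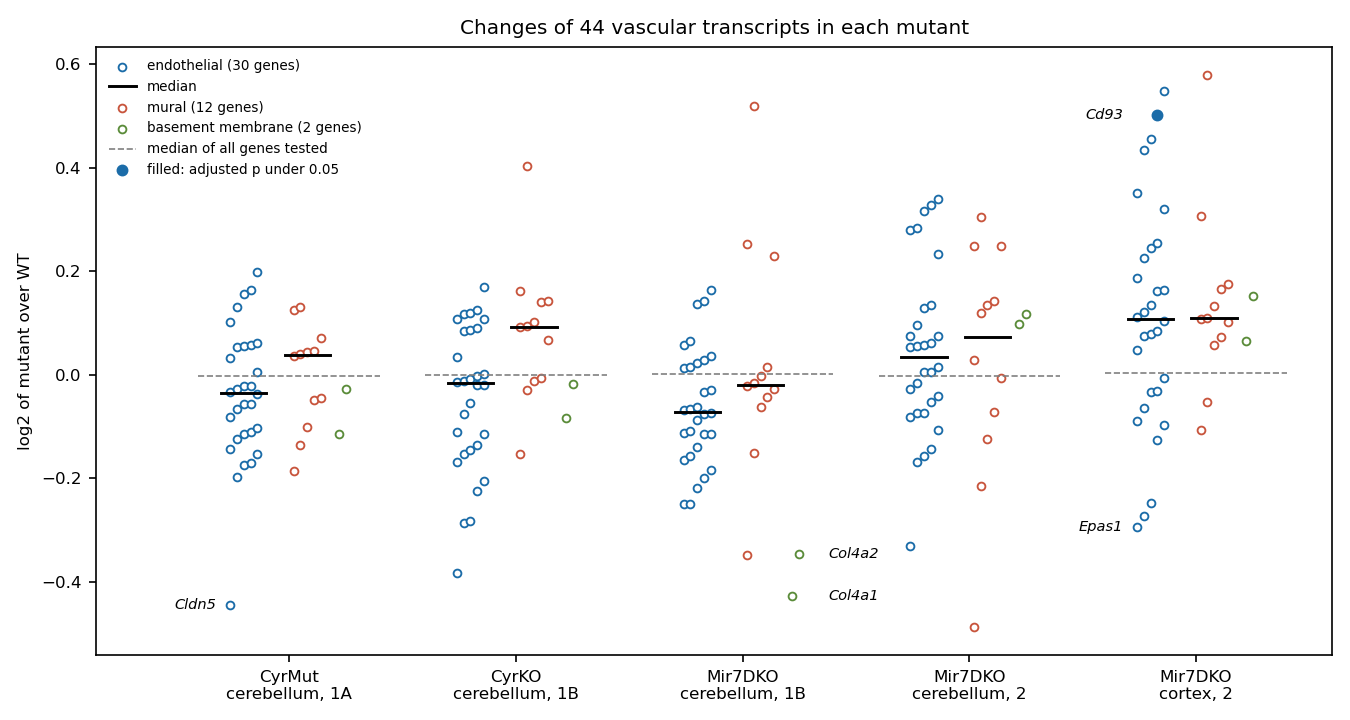
Log2 change of mutant over WT for the 30 endothelial, 12 mural and 2 basement membrane genes in each mutant comparison; circles are genes, black bars the medians of the endothelial and mural genes, dashed lines the median of all genes tested, and the filled circle is Cd93, the only member called. The medians are 0.11 for both cell classes in Mir7DKO cortex and -0.07 and -0.02 for endothelial and mural genes in Mir7DKO cerebellum of experiment 1B.

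The Mir7DKO comparisons of cerebellum were made on separate libraries in experiments 1B and 2, and the signs of the members matched about as often as those of all genes. A total of 25 of 44 members had the same sign in both (11 positive, 14 negative), or 56.8%, against 52.3% of all genes. Col4a1 was at -0.43 in experiment 1B and 0.12 in experiment 2, Kdr at -0.25 and 0.28, Cd93 at -0.20 and 0.33, and Eng at -0.03 and 0.32. Slc7a5 was negative in both, at -0.16 (SE 0.13) in experiment 1B and -0.33 in experiment 2, as was Epas1 at -0.11 (SE 0.093) and -0.16. In cortex, Slc7a5 was at 72.3, 69.6 and 56.0 CPM in Mir7DKO and at 79.2, 76.0, 81.0 and 75.7 CPM in WT, again with no overlap, a log2 change of -0.25 (SE 0.077, adjusted p = 0.804). The labels do not say whether the cerebellum and cortex libraries of experiment 2 came from the same mice. The values of the tissues need not be independent.

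The members with a miR-7 match of either form had these changes. In Mir7DKO cortex 10 of 11 members with a match were positive with a median of 0.13, beside 22 of 33 without one and a median of 0.10. In cerebellum of experiment 2 the counts were 9 of 11 with a median of 0.07, beside 18 of 33 with a median of 0.03. In cerebellum of experiment 1B they were 5 of 11 with a median of -0.06, beside 9 of 33 with a median of -0.06, and the collagen genes, each with 1 match printed above, had the lowest p on the negative side. Flt1, with 2 matches, had changes of 0.02 (SE 0.062) in experiment 1B, 0.07 (SE 0.058) in experiment 2 cerebellum and 0.16 (SE 0.052) in cortex. Rgs5, with 1 match, had 0.01 (SE 0.051), 0.12 and 0.13. None of these passed the test. Of all genes tested, 51.6% were positive in cortex, 49.3% in cerebellum of experiment 2 and 50.3% in experiment 1B. The shares over all genes with and without a match were not computed, so the counts of the members have no such background.

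The effect of Mir7DKO in cerebellum minus that in cortex was fitted over the 14 libraries of experiment 2. No member differed, where 23 of 14886 genes did (0.155%), and DESeq2 found none of the members either. At an unadjusted p under 0.05, 0 members were higher (2.96% of all genes) and 3 were lower (1.96%): Vtn at -0.24 (SE 0.095), Higd1b at -1.07 (SE 0.48) and Sox17 at -0.59 (SE 0.27). The value of Higd1b rests on few reads, 4 to 23 counts per library of experiment 2. Mfsd2a, which encodes the lipid transporter of the barrier, was at -0.33 (SE 0.16), or -0.18 without Mir7DKO cerebellum replicate 1, and Slc16a1, the monocarboxylate transporter gene, at -0.19 (SE 0.097). For Cd93 the difference was -0.17 (SE 0.13) and for Eng it was 0.00 (SE 0.12). The Cd93 call in cortex is thus not shown to be particular to cortex.

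In CyrMut cerebellum no member was called by edgeR or DESeq2, where 1 of 14866 genes was called (0.00673%). The member with the lowest p was Cldn5, the main claudin of the barrier (chromosome 16, 18776847 to 18778262, + strand). It was at 12.8, 10.8, 10.9 and 15.6 CPM in CyrMut and at 16.8, 18.1 and 15.8 CPM in WT, where CyrMut replicate 4 came close to the lowest WT library but the groups did not overlap. Its log2 change was -0.45 (SE 0.13, unadjusted p = 0.00476, adjusted p = 0.944). It was the only member lower at an unadjusted p under 0.05 (1.72% of all genes), and 0 were higher (3.26%). The groups also did not overlap for Erg, an ETS family transcription factor gene, which was lower in CyrMut at -0.17 (SE 0.13), and such separation was found for 2.65% of all genes. The other 5 junction genes had 1 positive and 4 negative changes, and the list's median was -0.05.

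Cd93 in CyrMut was at 25.6 to 31.1 CPM, against 29.7 to 33.0 CPM in WT, a change of -0.15 (SE 0.083). Vwf, the clotting factor that endothelium stores, was at 28.1 to 33.0 CPM in CyrMut and 23.7 to 28.5 CPM in WT, a change of 0.16 (SE 0.092). Of the mural genes Cspg4, which encodes the proteoglycan NG2 of pericytes and oligodendrocyte precursors, was at 13.3 to 15.6 CPM in CyrMut and 12.4 to 13.2 CPM in WT, the only member whose CyrMut libraries all lay above WT (2.76% of all genes), a change of 0.13 (SE 0.089), and Vtn had -0.10 (SE 0.076). Col4a1 at -0.11 (SE 0.073) and Col4a2 at -0.03 (SE 0.058) did not pass. Single libraries weighed on these values: leaving out 1 of them gave Vwf as little as 0.07 (without WT replicate 1), Cspg4 0.07 (without CyrMut replicate 4), Cd93 -0.10 (without CyrMut replicate 3), Vtn -0.04 (without WT replicate 2) and Col4a1 -0.04 (without WT replicate 2). Over the 44 members 18 were positive with a median of -0.03, where 49.1% of all genes were positive with a median of 0.00. The endothelial members summed to 1133 to 1233 CPM in CyrMut and 1182 to 1196 CPM in WT. Choroid plexus markers were positive for 14 of 14, at 254 to 2572 CPM summed in CyrMut and 197 to 874 CPM in WT, and erythrocyte markers negative for 7 of 7, at 299 to 459 CPM in CyrMut and 374 to 1693 CPM in WT. With the choroid plexus index in the fit no member was called, and the part of erythrocyte RNA was not tested.

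In CyrKO cerebellum no member was called by edgeR or DESeq2, where 3 of 13664 genes were called (0.0220%), and the CyrKO and WT libraries overlapped for each of the 44 members, where 4.14% of all genes had no overlap. At an unadjusted p under 0.05, Rgs5 was higher (2.88% of all genes) and Slc7a5 lower (4.46%). Slc7a5 was at 80.0, 79.2, 70.6 and 72.2 CPM in CyrKO and at 79.1, 76.4, 92.5 and 104 CPM in WT, a log2 change of -0.23 (SE 0.092, adjusted p = 0.677). WT replicates 3 and 4 were above all CyrKO libraries and the other WT libraries were among them. Rgs5 was at 204, 214, 238 and 228 CPM in CyrKO and at 195, 196, 208 and 201 CPM in WT, a change of 0.14 (SE 0.058, adjusted p = 0.677) in which only WT replicate 3 reached into the CyrKO range. Mir7DKO of experiment 1B shares these WT libraries, and its own change of Slc7a5 was -0.16.

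Of the other members given for CyrKO, all but Col4a2 had wider errors than Slc7a5. Slc2a1 was at 56.3 to 98.1 CPM in CyrKO and 86.8 to 116 CPM in WT, a change of -0.29 (SE 0.14), and Tie1, an orphan receptor of the angiopoietin system, at 8.98 to 11.01 CPM in CyrKO and 10.2 to 15.6 CPM in WT, a change of -0.28 (SE 0.14). Without CyrKO replicate 4 the change of Slc2a1 was -0.14, and without WT replicate 4 that of Tie1 was -0.15 and that of Slc7a5 -0.13. Ndufa4l2 had 0.40 (SE 0.26). Col4a1 had -0.02 (SE 0.11) and Col4a2 -0.08 (SE 0.090). CyrKO replicate 4 was the lowest CyrKO library in Slc2a1, Tie1, Col4a1 and Col4a2. Of the 12 mural genes 8 were positive with a median of 0.09, and of the 30 endothelial genes 11 were positive with a median of -0.02, where 49.5% of all genes were positive with a median of 0.00. The mural members summed to 367 to 409 CPM in CyrKO and 348 to 382 CPM in WT. Erythrocyte markers were positive for 6 of 6 tested (708 to 1355 CPM summed in CyrKO, 235 to 1749 CPM in WT) and perivascular macrophage markers for 4 of 4. Choroid plexus markers were negative for 8 of 9 tested (158 to 464 CPM summed in CyrKO, 188 to 891 CPM in WT) and oligodendrocyte markers for 7 of 7. The part of erythrocyte, macrophage and oligodendrocyte RNA in these values was not tested. Both Cyrano mutants together gave 25 of 44 members the same sign, or 56.8%, against 59.4% of all genes.

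Beyond the members, 127 genes of 8 further vascular lists (other endothelial and mural genes, VEGF, angiopoietin and PDGF ligands and receptors, Wnt and Norrin barrier signalling, Notch and TGF-beta or BMP signalling, other basement membrane genes, arterial and venous genes, and hypoxia-inducible genes) were examined. None of those tested was called in any mutant comparison by edgeR. In Mir7DKO cortex 83 of 119 were positive, with 14 higher and 2 lower at an unadjusted p under 0.05, where 51.6% of all genes were positive, 3.07% higher and 2.70% lower. In Mir7DKO cerebellum of experiment 2, 90 of 123 were positive, with 23 higher and 3 lower (all genes 49.3% positive, 3.90% higher and 2.88% lower). In Mir7DKO cerebellum of experiment 1B 56 of 124 were positive, with 1 higher and 6 lower (all genes 50.3% positive, 2.06% higher and 1.62% lower). The 25 other endothelial genes had 20 positive changes in both tissues of experiment 2 (medians of 0.12 in cerebellum and 0.15 in cortex) and 12 in experiment 1B (median 0.00). In CyrMut 72 of 125 were positive (49.1% of all genes) and in CyrKO 54 of 122 (49.5%).

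Against WT cortex, WT cerebellum had lower collagen IV and Cspg4 and higher Ocln, with smaller differences in other members. Of the 44 members 4 were higher (37.3% of all genes) and 17 lower (37.4%) in cerebellum, where 10455 of 14001 genes were called in all (74.7%). Fewer of the members were thus called than of all genes. The shortfall lay in the members called higher, while the share called lower was near that of all genes. The split was 3 higher and 11 lower among 30 endothelial genes, 1 higher and 4 lower among 12 mural genes, and 0 higher and 2 lower for collagen. The median over the members was -0.11, where that of all genes was 0.01. Scaling by library size alone moved the members' median to -0.05 and their number of positive changes to 17, against 10 with TMM, so the signs of small changes depend on it.

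Col4a2 was at 33.3, 35.0, 40.04 and 36.5 CPM in cerebellum and at 83.3, 79.8, 80.1 and 76.2 CPM in cortex, a log2 change of -1.15 (SE 0.0615, adjusted p = 4.8e-14). Col4a1 was at 36.7, 47.7, 51.5 and 44.4 CPM in cerebellum and at 78.2, 80.4, 81.0 and 68.2 CPM in cortex, a change of -0.78 (SE 0.079, adjusted p = 6.6e-09). In both genes every cortex library stood above every cerebellum library. Other basement membrane genes did not follow as a group, with 6 higher and 6 lower of 17. Agrn, which encodes agrin, had -1.14 (SE 0.050) and the laminin gene Lama4 -0.83 (SE 0.10), while Col18a1 had 3.46 (SE 0.091) and Sparc, a collagen-binding protein gene, 1.66 (SE 0.059).

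Among the endothelial genes, Ocln was at 28.9, 26.5, 27.3 and 25.7 CPM in cerebellum and at 10.3, 12.4, 11.97 and 12.7 CPM in cortex. It encodes occludin, a tight junction protein that other cells than endothelium also make. The cerebellum libraries were all above the cortex libraries, and the change was 1.18 (SE 0.091, adjusted p = 4.2e-11). The other endothelial genes higher in cerebellum rose little: Abcb1a, which encodes the drug efflux pump P-glycoprotein, by 0.18 (SE 0.074, adjusted p = 0.036) and Slc16a1 by 0.17 (SE 0.064, adjusted p = 0.021). Their groups overlapped, and neither passed with DESeq2 (adjusted p = 0.078 and 0.052). Thus the junction genes did not move as 1 group: Cldn5 had -0.36 (SE 0.12, adjusted p = 0.0092) and Tjp1 -0.22 (SE 0.050, adjusted p = 4.1e-04).

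The endothelial genes that were lower in cerebellum included transporters, transcription factors and a receptor. Sox18 was at 3.34, 2.49, 3.07 and 2.32 CPM in cerebellum and at 4.29, 3.94, 4.52 and 5.32 CPM in cortex, a change of -0.70 (SE 0.20, adjusted p = 0.0028). Abcg2, the gene of another efflux pump, was at 14.8, 15.8, 13.99 and 15.7 CPM in cerebellum and at 23.0, 20.8, 20.9 and 22.3 CPM in cortex, a change of -0.54 (SE 0.087, adjusted p = 6.7e-06). Eng was at 20.6, 22.7, 22.2 and 19.7 CPM in cerebellum and at 30.7, 26.6, 32.5 and 32.3 CPM in cortex, a change of -0.53 (SE 0.081, adjusted p = 3.6e-06). Mfsd2a had -0.39 (SE 0.098, adjusted p = 0.0012), and for these 4 genes no cerebellum library reached the cortex range. Emcn, which encodes a sialomucin of capillary and venous endothelium, lay closest to 0. It was at 9.22, 7.27, 8.74 and 8.55 CPM in cerebellum and at 7.78, 9.01, 7.74 and 8.96 CPM in cortex, a change of 0.00 (SE 0.13) whose sign depended on the setting.

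**Figure D5:**
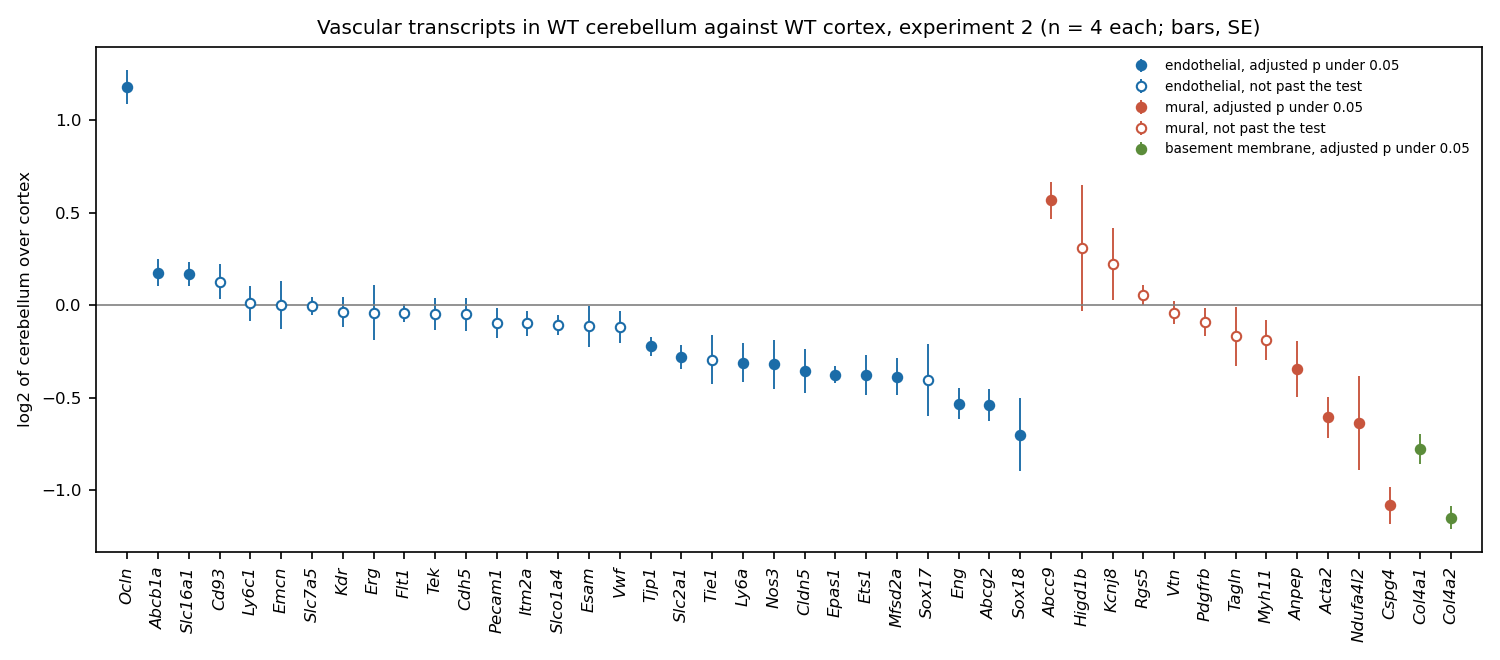
Log2 of WT cerebellum over WT cortex in experiment 2 for the 44 genes, ordered within endothelial, mural and basement membrane genes; bars are SE, filled points passed the test at an adjusted p under 0.05 and n is 4 per tissue. Ocln (1.18) and Abcc9 (0.57) stand highest in their classes, and Col4a2 (-1.15), Cspg4 (-1.08) and Col4a1 (-0.78) lowest.

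Among the mural genes, Cspg4 was at 9.93, 14.4, 12.9 and 13.2 CPM in cerebellum and at 25.2, 26.0, 29.2 and 26.0 CPM in cortex, a change of -1.08 (SE 0.10, adjusted p = 1.2e-09). Beside it, 5 of 6 oligodendrocyte precursor markers were lower in cerebellum, among them Pdgfra at -1.34 (SE 0.062), and Cspg4 marks those cells too. Their part in its change was not tested. Acta2 was at 14.5, 15.4, 13.99 and 13.4 CPM in cerebellum and at 19.6, 20.1, 28.02 and 18.8 CPM in cortex, a change of -0.60 (SE 0.11, adjusted p = 3.8e-05), with cortex replicate 3 well above the rest. Abcc9 was at 19.7, 19.99, 22.3 and 22.7 CPM in cerebellum and at 15.2, 15.6, 11.7 and 14.3 CPM in cortex, a change of 0.57 (SE 0.099, adjusted p = 2.0e-05), again with no overlap. Ndufa4l2 had -0.64 (SE 0.25, adjusted p = 0.028), which did not pass with DESeq2 (adjusted p = 0.126). The defining pericyte genes Rgs5, Pdgfrb and Kcnj8 did not pass. Microglia markers were lower in cerebellum for 8 of 8, and fibroblast markers higher for 2 and lower for 5 of 12.

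The further vascular lists had more genes lower than higher in WT cerebellum, with 22 higher and 56 lower of 121 tested, where 37.3% of all genes were higher and 37.4% lower. Those shares are the background of each further list too. Of the Notch and TGF-beta or BMP genes 14 of 19 were lower and 1 was higher: Bmp4 had -1.51 (SE 0.25), Jag2 -1.45 (SE 0.093) and S1pr1, the sphingosine phosphate receptor gene, 0.27 (SE 0.046). Of the arterial and venous genes 6 of 10 were lower and 0 higher, led by Efnb2 at -1.41 (SE 0.056) and Nr2f2 at -1.02 (SE 0.073). Among ligands and receptors Pdgfb, the pericyte-recruiting ligand, had -2.05 (SE 0.15), Nrp1 -1.46 (SE 0.074), Pdgfd 1.73 (SE 0.15) and Angpt1 1.14 (SE 0.11). Among barrier signalling genes Wnt7b had -2.04 (SE 0.11), Tcf7 -0.87 (SE 0.19), Ndp 0.72 (SE 0.15) and Wnt7a 2.88 (SE 0.096). Among other endothelial genes Cd34 had -2.10 (SE 0.083), Egfl7 -0.99 (SE 0.11), Cgnl1 1.74 (SE 0.059) and Plvap 0.65 (SE 0.17), and among other mural genes Casq2 had 3.62 (SE 0.10), Mcam 1.03 (SE 0.065), Gja4 -0.93 (SE 0.26) and Pln -0.73 (SE 0.30). Of the hypoxia-inducible genes 3 were higher and 3 lower of 11, with Pdk1 at -1.58 (SE 0.069), Egln3 at -1.09 (SE 0.16), Hif1a at 1.33 (SE 0.051) and Car9 at 5.10 (SE 0.24). All of these were past an adjusted p of 0.05, and many of the genes are also transcribed in neurons or glia.

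The same tissue comparison in Mir7DKO mice of experiment 2, on other libraries, called 3 members higher (34.1% of all genes) and 20 lower (34.1%), where 9836 of 14431 genes were called (68.2%). A total of 38 of 44 members had the same sign as in WT, or 86.4%, against 92.3% of all genes. Ocln had 1.23 (SE 0.11), Col4a2 -1.19 (SE 0.075), Cspg4 -0.94 (SE 0.13), Col4a1 -0.72 (SE 0.077), Abcg2 -0.54 (SE 0.11), Eng -0.52 (SE 0.090) and Acta2 -0.46 (SE 0.11), all called. Mfsd2a had -0.71 (SE 0.13), against -0.39 in WT. Sox17, at -0.98 (SE 0.19), was called in Mir7DKO, while in WT it had -0.40 (SE 0.19, adjusted p = 0.063). The difference between the genotypes, tested as -0.59 above, had an adjusted p of 0.987.

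The promoters of 27 of the 44 genes were matched in the RefSeq table (GRCm38.p6), which gives 250 bases before to 50 after each start. ETS factors, to which the products of the members Erg and Ets1 belong, bind sites with a GGAA core, so GGAAGT and CAGGAAG were searched on both strands. GGAAGT was in 8 of 33 member windows (24.2%), against 23.8% of 32851 windows of all genes, and CAGGAAG in 5 (15.2%), against 13.3%. Both shares of the pooled members were near those of all promoters. By class, GGAAGT was in 7 of 24 endothelial windows (29.2%) and 1 of 7 mural windows (14.3%). CAGGAAG was in 5 of 24 (20.8%) and 0 of 7 (0.0%). With so few windows, a difference between the classes was not tested.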

How the data were processed

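Per the file headers, the 5 deposited tables hold counts per gene and library, each with a normalised count, a signal that the authors made by dividing each count by 1 DESeq2 size factor per library. Tools named in the submitters' processing notes are STAR 2.4, HTSeq 0.6.1p1 and DESeq2 1.10, with mm10 (GRCm38). The sources used here do not give the annotation release or how strand and multiply matching reads were counted. Hence Col4a1 and Col4a2, whose starts overlap on opposite strands, may share reads. The deposited CyrMut table misses the mean of Myo15, for which an empty cell was added, so that its counts stand in their own columns.

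Each comparison was fitted on the counts of its own libraries with edgeR 4.0.16 in R 4.3.3 (filterByExpr at a minimum count of 10, TMM, quasi-likelihood F test, Benjamini-Hochberg). The SE is the size of the log2 change divided by the square root of F. DESeq2 1.42.0, other scalings, no filter, a replicate block, a choroid plexus index and leaving out each replicate were the alternatives. On simulated counts the main test recovered 92.0% to 97.0% of 100 genes changed 2-fold in each comparison of 2 groups, and 76.0% in the test of the difference between tissues. Of 100 genes changed 1.5-fold it recovered 70.0% to 87.0% and 56.0%, with 5 to 15 false calls per comparison. Every simulated gene had the same coefficient of variation beyond counting noise. It was smaller than that fitted over all genes in CyrMut (9.02%), CyrKO (8.98%) and Mir7DKO of experiment 1B (9.79%), so recovery there is overstated. It was larger than those fitted in experiment 2 (5.13% to 6.75%). Each simulation held both sets of 100 changed genes, while 1 to 28 genes were called in the mutant comparisons. Benjamini-Hochberg adjustment is less strict when more genes change. The recovery therefore does not carry over to the mutant comparisons, in experiment 2 either. The submitters call the libraries biological replicates, and p-values measure the spread between them. No pair of libraries was identical. The labels do not say whether replicate numbers pair the libraries. Correlations of same-numbered libraries ranged from -0.211 to 0.294, and in no comparison were all above 0.1. In Mir7DKO against WT cortex and in Mir7DKO cerebellum against cortex, all same-numbered correlations (0.030 to 0.100) exceeded those with other numbers. In each other comparison not all did. Values this low cannot decide whether a number marks shared animals.

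The members and lists were chosen with earlier results of these data known. Genes given in full are those called, in each mutant comparison the 3 endothelial and 2 mural members of lowest p and both collagen genes, in the tissue comparison those with the largest called changes and the member closest to 0, the highest WT levels, and the largest called tissue changes of each further list. Other genes given as examples were chosen after their values were seen.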

Additional observations from a re-analysis of the deposited data

Results flagged for a closer look

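A library stood apart from the other 3 of its group in 7 of 88 groups of 4 examined (named members and summed lists), where chance gives about 5% of groups. The measure is the gap to the nearest library over the group's whole range, with a critical value of 0.829. It was 0.984 for Col4a2 in Mir7DKO replicate 2 of experiment 1B, at 46.7 CPM with the next at 34.7 CPM, and 0.862 for the summed basement membrane genes in that library. The summed endothelial genes were lowest in Mir7DKO replicate 1 of experiment 1B (0.849), at 1074 CPM with the next at 1138 CPM. Tie1 was lowest in CyrKO replicate 4 (0.935). In WT cortex, Acta2 was highest in replicate 3 (0.852), Vtn was highest in replicate 1 (0.890), and the basement membrane sum was lowest in replicate 4 (0.919).

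For 4 of 13 named members the Mir7DKO changes in cerebellum had opposite signs in experiments 1B and 2 with every Mir7DKO library on one side of its WT mean in experiment 1B and on the other side in experiment 2. The change of experiment 1B minus that of experiment 2 was -0.5446 for Col4a1, -0.4453 for Col4a2, -0.3118 for Esam and -0.5294 for Kdr. These differences between experiments were not tested. The 13 are the members of lowest p in the Mir7DKO comparisons with WT, and both collagen genes. The genes were thus chosen in part by the values compared here. The count was not made over the other members or over all genes, so it has no background. Col4a1 and Col4a2 may share reads and need not be separate cases.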

How the results depend on the processing

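Over the 44 members, the alternatives changed few calls. No member was called in either direction in CyrMut or CyrKO under any alternative run. In Mir7DKO cortex the number of members higher, 1 as reported (Cd93), was 0 with DESeq2, with the choroid plexus index and without the 2 WT libraries rich in choroid plexus RNA, and 0 to 1 when 1 replicate was left out. The number lower, 0 as reported, was 1 (Epas1) with DESeq2, with no filter and with the replicate block, and 0 to 1 when 1 replicate was left out. In Mir7DKO cerebellum of experiment 2 the number lower, 0 as reported, was 1 (Slc7a5) with DESeq2, with no filter and with the choroid plexus index, and 0 to 1 when 1 replicate was left out. In experiment 1B it was 0 to 1, with Col4a1 called without Mir7DKO replicate 2. Between WT tissues the number higher, 4 as reported, was 2 with DESeq2 and 2 to 5 when 1 replicate was left out, and in Mir7DKO tissues, 3 as reported, it was 1 with DESeq2 and 1 to 3.

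Counts over all genes moved more. With no filter they were 43 in CyrMut, 10 in CyrKO, 4, 184 and 48 in Mir7DKO of experiment 1B, experiment 2 cerebellum and cortex, and 74 in the difference between tissues. With DESeq2 they were 4 in CyrMut, 3 in Mir7DKO of experiment 1B and 13 in the difference between tissues. Leaving out 1 replicate gave 1 to 17 in CyrMut (17 without CyrMut replicate 2), 3 to 10 in CyrKO (10 without WT replicate 4), 0 to 2 in Mir7DKO of experiment 1B, 3 to 70 and 4 to 11 in Mir7DKO cerebellum and cortex of experiment 2, and 1 to 48 in the difference between tissues. The choroid plexus index gave 16 in Mir7DKO cerebellum of experiment 2, and leaving out the 2 WT cortex libraries gave 3 in cortex. The causes were not tested.

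What a shared replicate number marks is not given in the labels. The replicate block gave 2 genes in Mir7DKO of experiment 1B and 19 in Mir7DKO cortex, and, besides calling Epas1 there, changed no other count by over 1.5 times.

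Signs turned for small changes that did not pass: Col4a1 in CyrKO (-0.0859 to 0.1029 when 1 replicate was left out), Rgs5 in Mir7DKO cerebellum of experiment 2 (-0.0012 to 0.2101), Rgs5 and Col4a1 in Mir7DKO cortex with the choroid plexus index (-0.0227 and -0.0207), Emcn between WT tissues (-0.0037 with RLE size factors, -0.0340 to 0.0713 when 1 replicate was left out), and Slc16a1 between Mir7DKO tissues (0.0390 by library size, 0.0076 with no filter, -0.0477 to 0.0212).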
